A study of Homo sapiens with 24 samples.

Results

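AQP3, C8orf4, HPN, SLITRK6 and MFAP2 were followed across lung cancer cells labelled CTRL or YAP1 KO. They are 5 of the 25365 gene rows of the deposited table. They were selected on the measured difference between genotypes, because their level was higher in YAP1 KO than in CTRL cells of both lines in at least 1 treatment, or because it was raised more by the drugs in YAP1 KO cells. The values of YAP1 KO against CTRL therefore chose these genes, and those values are given as a description with no test. PC9 and HCC4006 are established non-small cell lung cancer lines with a mutant EGFR. Both came as control cells (CTRL) and as a population labelled YAP1 KO, and each was given either DMSO, the solvent, or OT for 24 hours. OT is osimertinib, an EGFR inhibitor, at 100 nM together with trametinib, a MEK inhibitor, at 30 nM. That made 8 groups of 3 dishes, PC9 CTRL DMSO, PC9 CTRL OT, PC9 YAP1 KO DMSO, PC9 YAP1 KO OT and the same in HCC4006, and 24 mRNA sequencing libraries. The labels do not say whether the YAP1 KO cells of a line are 1 clone or a pool, or what the CTRL cells carry, so a feature of the population and the loss of YAP1 cannot be told apart, and p-values measure the spread between dishes. Levels are FPKM, which scale the fragments of a gene to the length of its transcript and to the fragments mapped in the library, and the absolute depth behind them is unknown. Differences are on the scale of log2(FPKM + 1), which understates the change of a low gene.

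YAP1 is a transcriptional coactivator that the kinases of the Hippo pathway keep out of the nucleus. It binds no DNA itself and acts mainly through the TEAD factors, and in epithelial tumours it is known for driving growth and survival programmes. YAP1 with TEAD is best known for switching genes on and can also repress. The 5 genes share no family. AQP3 is an aquaglyceroporin, a plasma membrane channel for water and glycerol found in many epithelia. HPN encodes hepsin, a serine protease anchored in the cell membrane that can activate pro-hepatocyte growth factor. SLITRK6 is a membrane protein with extracellular leucine-rich repeats, best known from neurons and the inner ear and also present in some carcinomas. MFAP2 is a secreted glycoprotein of the fibrillin microfibrils of the extracellular matrix. C8orf4, also called TCIM or TC1, is a small intracellular protein that has been tied to WNT and beta-catenin signalling.

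YAP1 mRNA was lower in the cells labelled YAP1 KO. Its mean FPKM in PC9 was 42.9 in CTRL DMSO, 34.2 in CTRL OT, 12.1 in YAP1 KO DMSO and 11.0 in YAP1 KO OT. In HCC4006 the same means were 18.2, 15.5, 4.24 and 6.13. With limma, the log2 difference of YAP1 KO from CTRL was -1.75 under DMSO (adjusted p = 3.36e-10) and -1.55 under OT (3.89e-10) in PC9, and -1.88 (4.26e-08) and -1.20 (2.99e-07) in HCC4006. A knockout can leave transcript behind, and what the mRNA encodes was not measured. In each line every OT library had a lower FPKM sum than every DMSO library, over a range of 507120 to 660459, with the lowest sum in HCC4006 CTRL OT replicate 1. The epithelial markers summed to between 3260 and 9940 FPKM in every library. The lung factor NKX2-1 was at 0 in at least 1 library and reached 56.5. Of the fibroblast markers, COL3A1, PDGFRA, PDGFRB, DCN and LUM stayed at or below 0.281. COL1A1 ran from 1.25 to 4.59, COL1A2 from 0.022 to 16 and THY1 from 0 to 2.32. Of the leukocyte markers, PTPRC stayed at or below 0.0516 and CD3E at or below 0.0936, while CD14 reached 2.43 and CD68 ran from 20.9 to 108. Of the endothelial markers, PECAM1, VWF and CDH5 stayed at or below 0.733 and KDR reached 5.81.

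The starts of these genes are shown because the members were picked by the same rule on the difference between genotypes, so a reader may look for shared letters there. The 250 bases before the start site were taken from RefSeq on GRCh38.p14, a later build than that of the deposited values, and 4 of the 5 genes matched, MFAP2 with 2 start sites. Capitals mark every match to 4 short motifs searched on both strands. These were GGAATG (the core bound by TEAD factors), TGANTCA (AP-1), GTAAACA (FOXO) and GGGCGG (GC box), read 5′ to 3′ on the gene's strand, and none contains another.
AQP3, chr9:33447594-33447843, minus strand: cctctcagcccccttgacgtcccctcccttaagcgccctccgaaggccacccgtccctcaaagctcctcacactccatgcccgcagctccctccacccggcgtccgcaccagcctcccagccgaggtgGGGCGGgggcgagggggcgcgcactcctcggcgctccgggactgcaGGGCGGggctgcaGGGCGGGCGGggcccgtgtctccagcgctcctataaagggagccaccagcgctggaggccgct
HPN, chr19:35041471-35041720, plus strand: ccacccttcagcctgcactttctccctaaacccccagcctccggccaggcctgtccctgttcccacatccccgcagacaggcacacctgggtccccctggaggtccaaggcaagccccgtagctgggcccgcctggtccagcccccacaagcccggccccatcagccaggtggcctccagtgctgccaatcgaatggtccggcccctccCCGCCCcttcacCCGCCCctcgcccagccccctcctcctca
SLITRK6, chr13:85799420-85799669, minus strand: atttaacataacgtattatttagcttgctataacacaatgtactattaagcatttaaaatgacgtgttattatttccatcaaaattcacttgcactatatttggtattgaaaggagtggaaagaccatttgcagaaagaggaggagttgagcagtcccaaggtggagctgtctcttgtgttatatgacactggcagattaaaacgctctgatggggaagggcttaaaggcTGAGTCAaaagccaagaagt
MFAP2, chr1:16981584-16981833, minus strand: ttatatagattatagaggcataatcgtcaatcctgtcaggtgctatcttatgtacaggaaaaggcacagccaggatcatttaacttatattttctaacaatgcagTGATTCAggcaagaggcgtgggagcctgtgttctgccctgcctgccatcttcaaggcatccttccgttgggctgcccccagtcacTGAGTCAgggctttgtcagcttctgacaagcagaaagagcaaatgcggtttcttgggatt
MFAP2, chr1:16980621-16980870, minus strand: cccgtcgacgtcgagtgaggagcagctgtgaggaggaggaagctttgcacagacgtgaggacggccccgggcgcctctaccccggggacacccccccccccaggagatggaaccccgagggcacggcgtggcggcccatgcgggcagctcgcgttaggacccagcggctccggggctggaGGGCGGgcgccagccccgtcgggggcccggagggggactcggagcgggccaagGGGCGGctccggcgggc

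No motif was present in all of these windows. The AQP3 window held 4 GC boxes, at -122, -76, -63 and -59 from the start site, of which the last pair overlap. The HPN window held 2 GC boxes on the other strand, at -41 and -29. The SLITRK6 window held 1 AP-1 match at -20, and the MFAP2 window at the farther start held 2 matches to the AP-1 pattern at -145 and -60. In that pattern N stands for any base, and the match at -145 reads TGATTCA while that at -60 reads TGAGTCA. The other MFAP2 window held 2 GC boxes at -70 and -17. The letters of the TEAD core and of the FOXO motif were in none of the 5 windows. Over all 35116 windows of the same length, 11.9% held the TEAD core, 6.57% the AP-1 motif, 2.98% the FOXO motif and 42.6% the GC box. The windows also differed in base composition, with a GC content of 73.6% for AQP3, 70.4% for HPN, 37.6% for SLITRK6, and 46.8% and 76.4% for MFAP2. A match is a run of letters and says nothing of whether a factor binds.

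**Figure D1:**
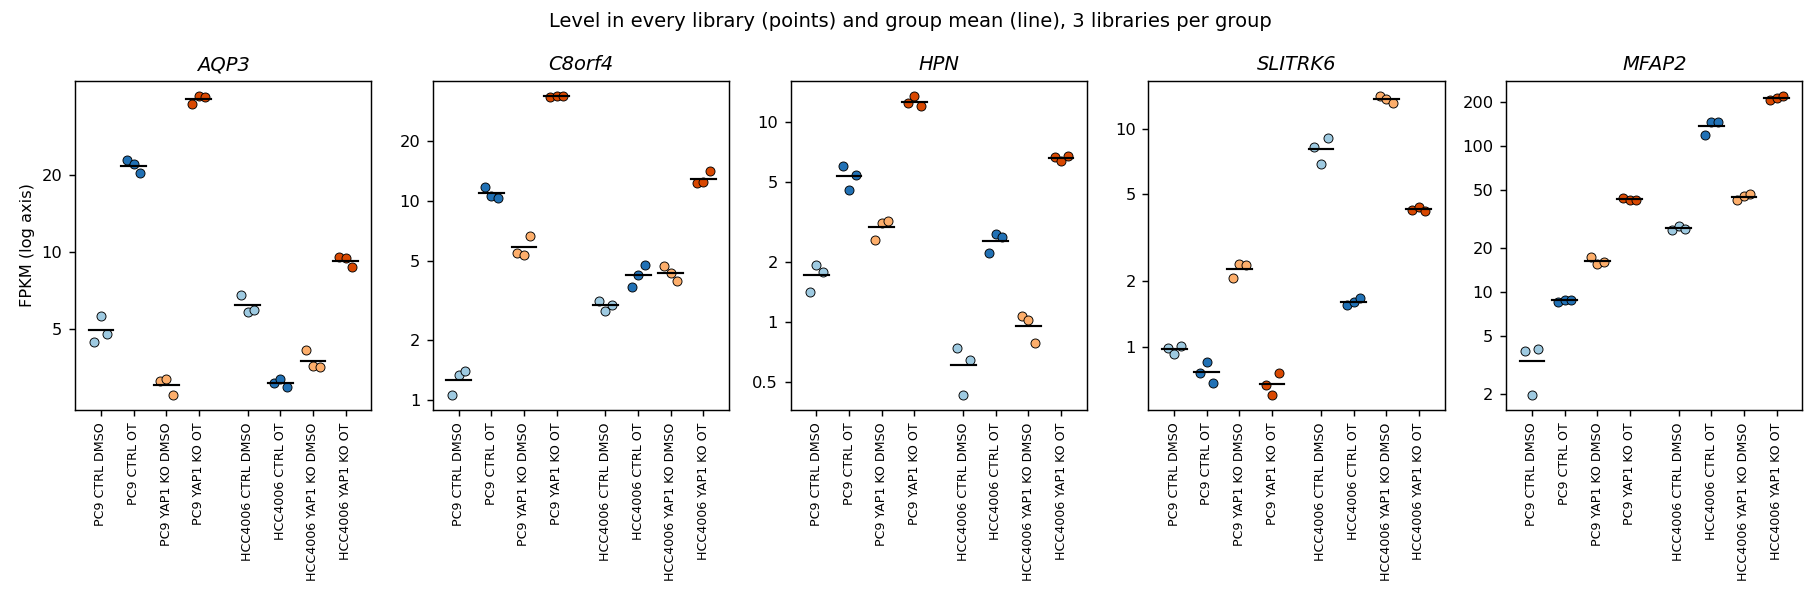
FPKM (log axis, with its own range in each panel) of the 5 genes in each of the 24 libraries, with points for single libraries and a line for the mean of the 3 libraries of a group. MFAP2 in HCC4006 reached 215 FPKM in YAP1 KO OT, SLITRK6 in PC9 stayed at or below 2.39, and the highest group was YAP1 KO OT in each line for all genes but SLITRK6.

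AQP3, the water and glycerol channel, was highest in PC9 YAP1 KO OT. Its FPKM in PC9 was 4.48, 5.64 and 4.80 in CTRL DMSO, 22.8, 21.9 and 20.3 in CTRL OT, 3.15, 3.21 and 2.79 in YAP1 KO DMSO, and 37.6, 40.5 and 40.1 in YAP1 KO OT. Under DMSO all YAP1 KO libraries of PC9 lay below all CTRL libraries, and under OT all lay above. The group means were 4.97 ± 0.601, 21.7 ± 1.25, 3.05 ± 0.230 and 39.4 ± 1.53 FPKM (SD, n = 3). In RNA from whole dishes, more cells that express a gene and more RNA per cell cannot be told apart. In the cells labelled YAP1 KO the mean was thus 0.613 times the control level under DMSO and 1.82 times it under OT.

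The same crossing was seen in HCC4006, at lower levels than in PC9 under OT and at higher levels under DMSO. AQP3 there was at 6.82, 5.85 and 5.92 FPKM in CTRL DMSO, 3.08, 3.21 and 2.98 in CTRL OT, 4.14, 3.62 and 3.57 in YAP1 KO DMSO, and 9.54, 9.48 and 8.77 in YAP1 KO OT. OT was accompanied by 0.499 times the DMSO level in CTRL cells and by 2.45 times the DMSO level in YAP1 KO cells, and none of these groups overlapped within the line. The means were 6.20 ± 0.540, 3.09 ± 0.116, 3.78 ± 0.317 and 9.26 ± 0.426 FPKM (SD, n = 3). AQP3 thus goes against the description as raised by YAP1 loss under DMSO, where the log2 difference of YAP1 KO from CTRL was -0.56 in PC9 and -0.59 in HCC4006. Under OT it was 0.83 and 1.33. The interaction, which subtracts the OT response of CTRL cells from that of YAP1 KO cells, was 1.39 in PC9 and 1.92 in HCC4006, and it placed AQP3 at rank 10 of the 11845 genes kept in both lines by the smaller of both values. Over all 8 groups only HCC4006 CTRL OT and PC9 YAP1 KO DMSO, the lowest in the order, overlapped with a neighbour.

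HPN, the membrane protease hepsin, was higher in YAP1 KO than in CTRL cells in every pairing of line and treatment. In PC9 its FPKM was 1.41, 1.93 and 1.77 in CTRL DMSO, 6.05, 4.58 and 5.41 in CTRL OT, 2.57, 3.13 and 3.20 in YAP1 KO DMSO, and 12.4, 13.5 and 11.98 in YAP1 KO OT. No pair of these groups overlapped. In HCC4006 it was 0.736, 0.431 and 0.643 in CTRL DMSO, 2.22, 2.75 and 2.64 in CTRL OT, 1.07, 1.01 and 0.781 in YAP1 KO DMSO, and 6.70, 6.41 and 6.77 in YAP1 KO OT. These groups did not overlap either, although the DMSO groups lay close together and near the filter level of 1 FPKM, which 8 of the 12 HCC4006 libraries reached.

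Group means of HPN were 1.71 ± 0.265, 5.35 ± 0.735, 2.96 ± 0.345 and 12.6 ± 0.795 FPKM in PC9, and 0.603 ± 0.156, 2.54 ± 0.280, 0.955 ± 0.153 and 6.63 ± 0.193 FPKM in HCC4006 (SD, n = 3, in the order CTRL DMSO, CTRL OT, YAP1 KO DMSO, YAP1 KO OT). The ratio of YAP1 KO to CTRL was larger under OT than under DMSO, at 2.36 against 1.74 in PC9 and 2.61 against 1.58 in HCC4006. On the log2 scale the differences were 0.55 under DMSO and 1.11 under OT in PC9, and 0.29 and 1.11 in HCC4006, so that the interaction was 0.56 and 0.82. In the order of the 8 groups, PC9 YAP1 KO DMSO and HCC4006 CTRL OT overlapped, and every other neighbour stood apart.

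SLITRK6, the leucine-rich repeat membrane protein, had the opposite drug pattern and was highest in DMSO. In HCC4006 its FPKM was 8.20, 6.87 and 9.04 in CTRL DMSO, 1.55, 1.61 and 1.68 in CTRL OT, 14.1, 13.7 and 13.1 in YAP1 KO DMSO, and 4.24, 4.37 and 4.21 in YAP1 KO OT. All 4 groups were apart, with means of 8.04 ± 1.1, 1.61 ± 0.0647, 13.6 ± 0.502 and 4.27 ± 0.0869 FPKM (SD, n = 3). The YAP1 KO level was 1.69 times the control level under DMSO and 2.65 times under OT, a log2 difference of 0.70 and 1.01.

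In PC9 the gene was near the limit of what was kept. SLITRK6 was there at 0.989, 0.930 and 1.00 FPKM in CTRL DMSO, 0.761, 0.855 and 0.686 in CTRL OT, 2.08, 2.39 and 2.37 in YAP1 KO DMSO, and 0.668, 0.604 and 0.760 in YAP1 KO OT. The means were 0.974 ± 0.0390, 0.767 ± 0.0843, 2.28 ± 0.174 and 0.678 ± 0.0782 FPKM (SD, n = 3). Only YAP1 KO DMSO stood above 1 FPKM in full, and 4 of the 12 PC9 libraries reached that level. The gene passed the filter in PC9 only because YAP1 KO DMSO was high. Under OT the YAP1 KO and CTRL libraries of PC9 overlapped, with a log2 difference of -0.08, so SLITRK6 goes against the description as raised by YAP1 loss in PC9 under OT. The interaction was -0.81 in PC9 and 0.31 in HCC4006.

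MFAP2, the microfibril glycoprotein, was the most abundant of the 5 in HCC4006. Its FPKM there was 26.7, 28.5 and 27.0 in CTRL DMSO, 119, 146 and 146 in CTRL OT, 42.6, 45.8 and 46.9 in YAP1 KO DMSO, and 208, 216 and 221 in YAP1 KO OT. No groups overlapped. The means were 27.4 ± 0.924, 137 ± 15.7, 45.1 ± 2.22 and 215 ± 6.48 FPKM (SD, n = 3), and the mean in YAP1 KO OT stood at percentile 97.5 among the genes kept in that line. The lowest CTRL OT value, 119, came from the library with the lowest FPKM sum. Without that library the log2 difference of YAP1 KO from CTRL under OT was 0.559, against 0.66 with it.

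In PC9, MFAP2 was at 3.94, 1.97 and 4.08 FPKM in CTRL DMSO, 8.51, 8.85 and 8.83 in CTRL OT, 17.4, 15.5 and 16.0 in YAP1 KO DMSO, and 44.0, 42.7 and 42.7 in YAP1 KO OT. These groups were apart as well, with means of 3.33 ± 1.18, 8.73 ± 0.189, 16.3 ± 1.01 and 43.2 ± 0.761 FPKM (SD, n = 3). The ratio of YAP1 KO to CTRL was nearly equal in both treatments within a line and differed between the lines. It was 4.89 under DMSO and 4.95 under OT in PC9, and 1.65 and 1.57 in HCC4006. On the log2 scale these were differences of 2.04 and 2.18, and of 0.70 and 0.66. The low CTRL DMSO library of PC9, replicate 2 at 1.97 FPKM, mattered for the former, since without it the log2 difference under DMSO was 1.78. The interaction was 0.15 in PC9 and -0.04 in HCC4006, and its sign in each line was not kept under every alternative processing, with ranges of -0.0526 to 0.398 and of -0.139 to 0.00812.

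C8orf4, the small protein tied to WNT signalling, had all YAP1 KO libraries above all CTRL libraries in each line and treatment. In PC9 its FPKM was 1.06, 1.33 and 1.40 in CTRL DMSO, 11.7, 10.6 and 10.4 in CTRL OT, 5.50, 5.38 and 6.70 in YAP1 KO DMSO, and 33.6, 33.8 and 33.7 in YAP1 KO OT. In HCC4006 it was 3.16, 2.80 and 3.0 in CTRL DMSO, 3.71, 4.25 and 4.75 in CTRL OT, 4.72, 4.36 and 3.95 in YAP1 KO DMSO, and 12.3, 12.5 and 14.1 in YAP1 KO OT. Of all groups within a line, only CTRL OT and YAP1 KO DMSO of HCC4006 overlapped.

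The means of C8orf4 were 1.26 ± 0.177, 10.9 ± 0.711, 5.86 ± 0.732 and 33.7 ± 0.115 FPKM in PC9, and 2.98 ± 0.180, 4.24 ± 0.519, 4.34 ± 0.385 and 12.95 ± 1.01 FPKM in HCC4006 (SD, n = 3, in the order used above). YAP1 KO was 4.64 times CTRL under DMSO and 3.09 times under OT in PC9. In HCC4006 it was 1.46 times CTRL under DMSO and 3.05 times under OT. In PC9 the log2 differences were 1.60 under DMSO and 1.54 under OT, and in HCC4006 they were 0.42 and 1.42. The interaction was 0.99 in HCC4006 and -0.05 in PC9, where alternatives gave -0.581 to 0.0319.

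**Figure D2:**
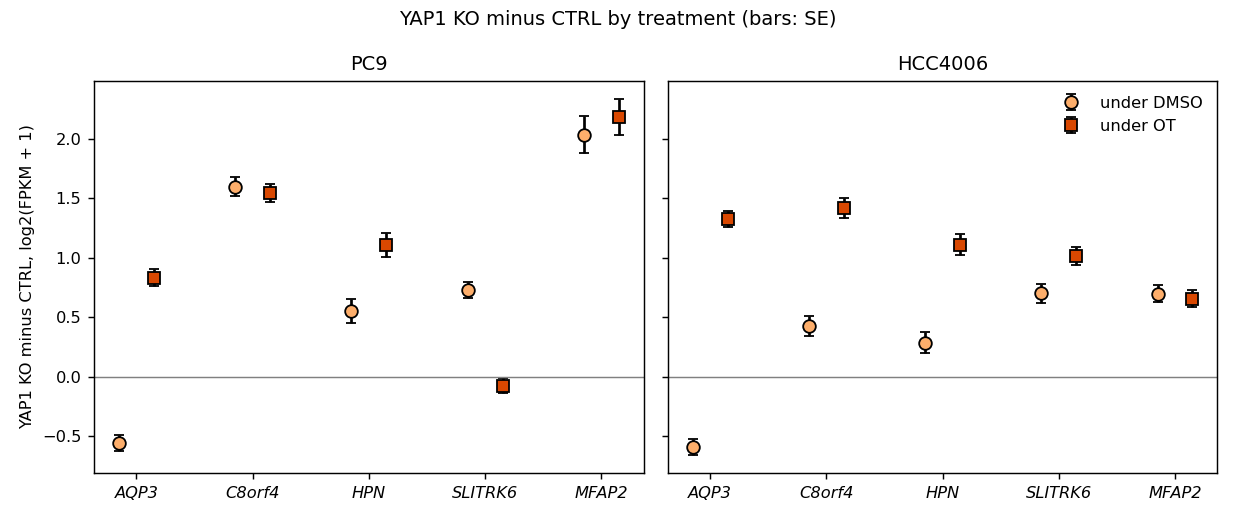
Log2 difference of YAP1 KO from CTRL (y axis, log2(FPKM + 1)) for the 5 genes, with circles for DMSO, squares for OT and bars for the standard error from limma. AQP3 lies below 0 under DMSO in both lines and above 0 under OT, and SLITRK6 in PC9 is near 0 under OT at -0.08.

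Counted together, 4 of the 5 genes had all YAP1 KO libraries above all CTRL libraries under DMSO in PC9, against 27.6% of the genes kept in that line, and 1 (AQP3) had them below, against 25.1%. The same counts held in HCC4006 under DMSO, against 21.5% and 17.8%. Under OT, 4 were above in PC9 (31.8% of genes kept) with SLITRK6 overlapping, and 5 were above in HCC4006 (32.9%). The choice of the genes fixes these counts. Members were not the extremes of these contrasts throughout. At an adjusted p under 0.05 in limma, 19.8% of the genes tested were called higher in YAP1 KO under DMSO and 28.5% under OT in PC9, and 9.2% and 27.2% in HCC4006. Of the 11845 genes kept in both lines, 284 were called higher in both under DMSO and 1256 under OT. Ordered by the smaller of the line differences, SLITRK6 stood at 6, MFAP2 at 7, C8orf4 at 22 and HPN at 84 under DMSO. Under OT, C8orf4 stood at 8, HPN at 9, AQP3 at 21 and MFAP2 at 51. AQP3 under DMSO (11469) and SLITRK6 under OT (6069) were far down the order.

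The response to OT averaged over CTRL and YAP1 KO cells was not used to pick the genes and was tested. In PC9, AQP3, C8orf4, HPN and MFAP2 rose with OT. That is 4 called higher, where 38.4% of the 12685 genes tested were called higher and 44.1% lower, so a call is common in this contrast and its size is the more telling value. With limma the averaged log2 response was 2.62 for AQP3 (SE 0.0502, adjusted p = 2.22e-13), 2.37 for C8orf4 (SE 0.0544, 9.36e-13), and 1.51 for HPN (SE 0.0695, 6.08e-10). It was 1.28 for MFAP2 (SE 0.109, 2.27e-07). SLITRK6 had -0.56, given with no test, since it entered the PC9 fit through YAP1 KO DMSO and the filter thus favours a lower value under OT. AQP3, SLITRK6 and HPN had unlike values in the genotypes behind their average. AQP3 had 1.93 in CTRL and 3.32 in YAP1 KO cells, and SLITRK6 had -0.16 and -0.97. HPN had 1.23 and 1.79. C8orf4 had 2.40 and 2.34, and MFAP2 1.21 and 1.36.

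In HCC4006, AQP3, C8orf4 and MFAP2 were called higher and SLITRK6 lower, where 48.6% of the 13113 genes tested were called higher and 39% lower. MFAP2 rose by 2.25 on the log2 scale (limma, SE 0.0511, adjusted p = 5.37e-13) and C8orf4 by 0.89 (SE 0.0593, 1.63e-08). HPN had 1.55, given with no test, since it passed the filter in this line through its OT groups, where it is high. As a ratio of mean FPKM, OT over DMSO was 4.21 in CTRL and 6.94 in YAP1 KO cells for HPN, and 4.99 and 4.77 for MFAP2. SLITRK6 fell by 1.63 (SE 0.0539, 1.75e-11). AQP3 had an average of only 0.15 (SE 0.0482, adjusted p = 0.013), made of -0.81 in CTRL and 1.1 in YAP1 KO cells, and this call was lost under median-of-ratios scaling (0.0757, adjusted p = 0.141, over a range of 0.000302 to 0.141 for its alternatives). The median response of all genes in this contrast was 0.102, and it was 0.287 and 0.0296 under 2 other scalings, so the AQP3 average is of the size of the common shift. Within CTRL and YAP1 KO cells, MFAP2 had 2.27 and 2.23, HPN 1.14 and 1.97, C8orf4 0.39 and 1.38, and SLITRK6 -1.78 and -1.47.

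Counted by overlap, the OT libraries of CTRL cells lay above all DMSO libraries for 4 of the genes and below for 1 in PC9, where 32.8% and 42% of genes did so. In CTRL cells of HCC4006 they lay above for 3 and below for 2, AQP3 and SLITRK6, where the shares were 44.5% and 36.4%. In YAP1 KO cells 4 were above and SLITRK6 was below in each line, with shares of 37.8% and 42% in PC9 and 48.6% and 38.2% in HCC4006. SLITRK6 in PC9 and HPN in HCC4006 are in these counts although the filter favours their direction. In HCC4006 the summed fibroblast markers moved with OT as well, from 5.61 to 6.23 FPKM in CTRL DMSO up to 20.9 to 22.0 in CTRL OT, and from 2.52 to 2.94 in YAP1 KO DMSO up to 7.30 to 7.75 in YAP1 KO OT. At a group mean of 1 FPKM or more were 3 of the 8 fibroblast genes in both CTRL groups, 1 in YAP1 KO DMSO and 2 in YAP1 KO OT. The 4 leukocyte genes summed to 21.9 to 24.8 FPKM under DMSO and 82.8 to 110 under OT, nearly all of it CD68, and the endothelial gene KDR reached 5.81 FPKM. The part of these markers in the responses of the members was not tested. In PC9 the fibroblast sums ran from 1.38 to 1.59 FPKM in CTRL DMSO, 1.9 to 2.23 in CTRL OT, 1.52 to 1.71 in YAP1 KO DMSO and 2.33 to 2.71 in YAP1 KO OT.

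**Figure D3:**
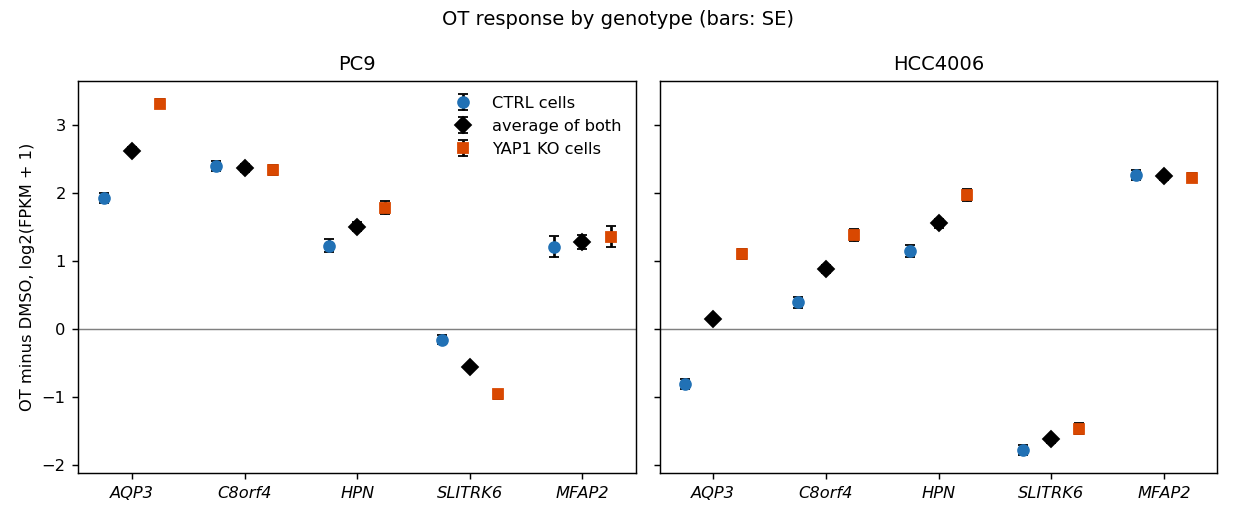
Log2 difference of OT from DMSO (y axis, log2(FPKM + 1)) for CTRL cells (circles), YAP1 KO cells (squares) and their average (diamonds), with bars for the standard error from limma. AQP3 in HCC4006 has CTRL and YAP1 KO cells on opposite sides of 0, and SLITRK6 is below 0 in both lines.

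The lines themselves differed in the level of the members. In 1 fit of the 24 libraries, averaged over genotypes and treatments, MFAP2 was called higher in HCC4006, and AQP3 and C8orf4 lower. Of the 11845 genes tested, 44.6% were called higher and 45.5% lower. MFAP2 was higher in HCC4006 by 2.57 on the log2 scale (limma, adjusted p = 1.03e-19). AQP3 was lower at -0.98 (adjusted p = 6.86e-17) and C8orf4 at -0.51 (1.4e-10). These 2 averages join groups of opposite sign. The mean of AQP3 was lower in HCC4006 in the OT groups only. Under DMSO it was 6.20 FPKM in HCC4006 against 4.97 in PC9 for CTRL, and 3.78 against 3.05 for YAP1 KO. C8orf4 was higher in HCC4006 in CTRL DMSO, at 2.98 against 1.26 FPKM, and lower in the other groups. SLITRK6 had 1.64 and HPN -0.86, both given with no test. SLITRK6 passed the filter in PC9 only through YAP1 KO DMSO, and HPN passed it in HCC4006 through its OT groups. The averaged OT response also differed between the lines for AQP3, C8orf4 and MFAP2, 1 higher and 2 lower in HCC4006, where 44.3% and 30.4% of genes were called. It was smaller in HCC4006 for AQP3 by a log2 difference of -2.48 (limma, adjusted p = 1.88e-17) and for C8orf4 by -1.48 (1.28e-12). For MFAP2 it was 0.97 (adjusted p = 8.18e-07), a larger rise in HCC4006. For SLITRK6 it was -1.06, given with no test because of how the gene passed the filter in PC9. As a ratio of mean FPKM, its OT over DMSO in CTRL cells was 0.787 in PC9 and 0.2 in HCC4006. In YAP1 KO cells that ratio was 0.297 in PC9, where YAP1 KO DMSO kept the gene in the fit, and 0.314 in HCC4006. For HPN the difference was 0.05, given with no test because of how the gene passed the filter in HCC4006. That value was -0.0751 under median-of-ratios scaling and 0.477 with a pseudocount of 0.1, so the HPN comparison depends on the processing.

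Genes with a like pattern were sought over the 24 libraries, after the mean of each line was subtracted from log2(FPKM + 1). The points of such a correlation share libraries and treatment, so it is a description. KRT15, a basal keratin, had the highest Pearson r with AQP3, at 0.987, followed by UBR2 (0.937) and DHRS3 (0.931). KRT15 had mean FPKM of 14.7, 28.7, 13.7 and 36.5 in the PC9 groups and 5.11, 3.43, 4.13 and 6.0 in the HCC4006 groups, in the order CTRL DMSO, CTRL OT, YAP1 KO DMSO, YAP1 KO OT. Its means thus crossed like those of AQP3, lower in YAP1 KO under DMSO and higher under OT. The DMSO means in PC9, 14.7 and 13.7, lay close together, and their spread is not given. HPN was most like KLF9, a zinc-finger transcription factor known for its induction by glucocorticoids, with r = 0.991. KLF9 was at 1.23, 3.33, 2.04 and 7.28 FPKM in PC9 and 3.0, 6.01, 3.66 and 11.9 in HCC4006. ACADVL (0.979) and HHIPL2 (0.977) came next, and ACADVL is an enzyme of mitochondrial fatty acid oxidation. HHIPL2 was at 0.068, 0.66, 0.0825 and 1.38 FPKM in HCC4006. Only its YAP1 KO OT mean was above 1 FPKM there, so the filter favours its likeness to HPN.

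C8orf4 was most like VMP1, a membrane protein of autophagosome formation, with r = 0.959. VMP1 had a narrower span, from 37.7 to 76.4 FPKM over the PC9 groups, against 1.26 to 33.7 for C8orf4. MAMDC2 (0.946) and ZNF467 (0.945) followed. MFAP2 was most like ARHGEF25, a guanine nucleotide exchange factor for RHOA, with r = 0.98, then RNF146 (0.972) and PALM (0.969). ARHGEF25 had mean FPKM of 2.80, 4.62, 5.22 and 9.39 in PC9 and 0.604, 2.17, 0.886 and 2.74 in HCC4006. In HCC4006 only its OT means were above 1 FPKM, so the filter favours its likeness to MFAP2. SLITRK6 was most like DPM1 (0.966), a subunit of dolichol-phosphate mannose synthase, then FUBP3 (0.963) and ADO (0.962). DPM1 moved far less, from 42.5 FPKM in HCC4006 CTRL OT to 119 in PC9 YAP1 KO DMSO. Among the members, r was 0.906 for C8orf4 with HPN, 0.894 for HPN with MFAP2 and 0.824 for C8orf4 with MFAP2. AQP3 had 0.798 with C8orf4, 0.712 with HPN and 0.421 with MFAP2, and SLITRK6 had -0.508 to -0.216 with the others.

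**Figure D4:**
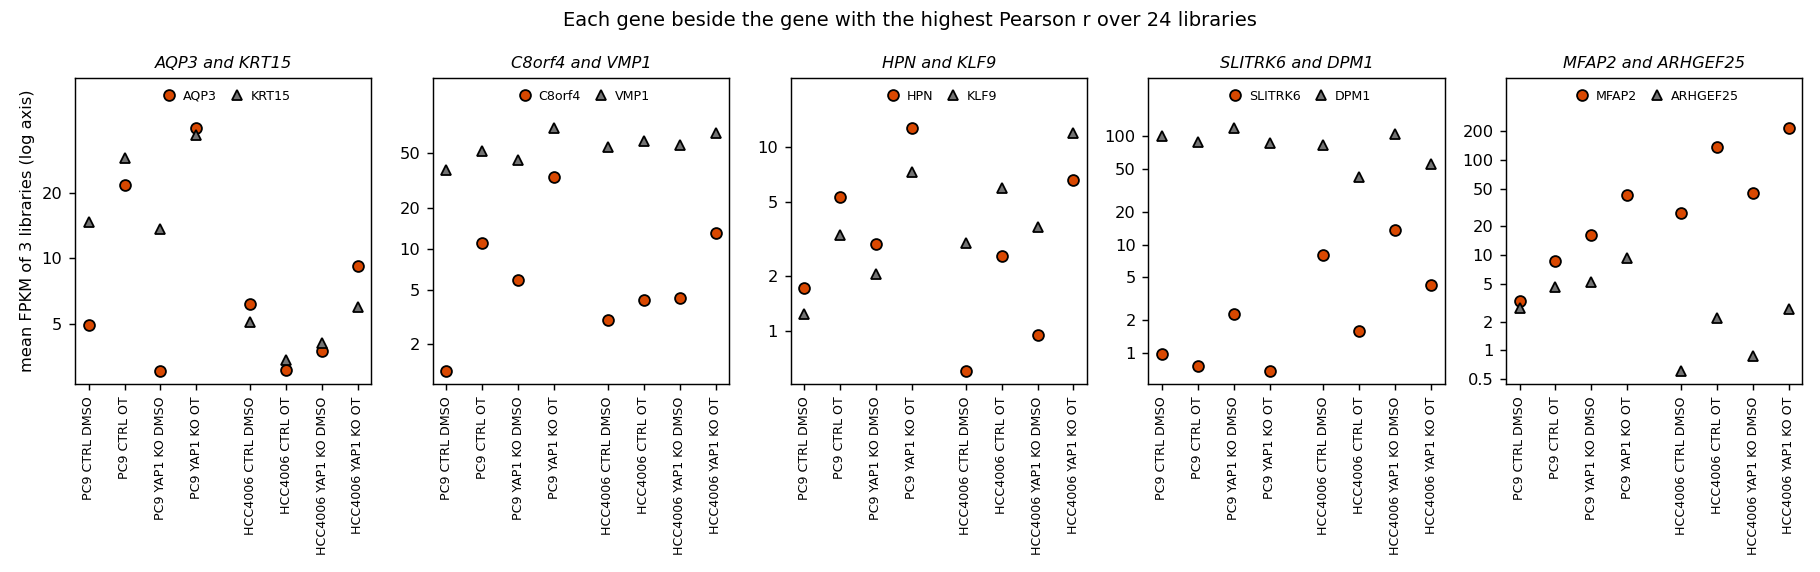
Mean FPKM (log axis, 3 libraries per group) of each gene (circles) and of the gene with the highest Pearson r to it over 24 libraries (triangles) in the 8 groups. KLF9 follows HPN in each line, whereas DPM1 stays between 42.5 and 119 FPKM while SLITRK6 spans 0.678 to 13.6.

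The relatives and pathway neighbours of each member, listed by function, were tested in the same contrasts. The aquaporin and glycerol list, without AQP3, had 14 genes, of which 4 were expressed enough to be tested in each line. Under DMSO 0 were called higher and 1 lower in PC9, where 39.9% of all genes tested were called in either direction, and 0 and 1 in HCC4006, where 17.8% were. Under OT PC9 had 2 higher and 1 lower (53.7% of all genes called), and HCC4006 had 2 and 0 (43.6%). GPD1L, an enzyme of glycerol 3-phosphate metabolism, was higher in YAP1 KO under OT by 0.23 in PC9 (limma, adjusted p = 0.00588) and 0.46 in HCC4006 (0.000303). AQP1, the water channel of many epithelia and vessels, was lower under DMSO in HCC4006 at -0.58 (adjusted p = 0.000235). Its higher call under OT in PC9, 0.33 (adjusted p = 0.0154), was lost without CTRL OT replicate 2 (0.0568) or without YAP1 KO OT replicate 1 (0.0657). GPD2, the mitochondrial glycerol 3-phosphate dehydrogenase, was lower in PC9 under DMSO at -0.28 (adjusted p = 0.00676). Its lower call in PC9 under OT (-0.19, adjusted p = 0.0337) was lost without any 1 of CTRL OT replicates 1, 2 and 3 and YAP1 KO OT replicates 2 and 3, with adjusted p of 0.0517 to 0.137. The median of the list was 0.00 under DMSO and 0.07 under OT in PC9 and -0.08 and 0.12 in HCC4006, beside 0.01, 0.02, 0.02 and 0.06 for all genes.

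The list of membrane-anchored serine proteases with their inhibitors and substrates, without HPN, had 22 genes, and 15 were tested in each line. Under DMSO PC9 had 0 called higher and 9 called lower in YAP1 KO cells (39.9% of all genes tested called in either direction), and HCC4006 had 1 and 2 (17.8%). Under OT PC9 had 6 higher and 3 lower (53.7%), and HCC4006 had 6 and 2 (43.6%). Rescaling every library to the same sum gave 0 higher and 1 lower under DMSO in HCC4006. Under OT in that line the 6 higher became 4 with the same rescaling, with median-of-ratios scaling and with a pseudocount of 0.01. Of all genes tested there, 27.2% were called higher. The list's medians were -0.08 and 0.15 in PC9 under DMSO and OT, and -0.02 and 0.01 in HCC4006, beside the same medians of all genes as above. TMPRSS6, a membrane protease known for cleaving hemojuvelin, had 0.75 under OT in PC9 and 0.51 in HCC4006, both given with no test. With a pseudocount of 0.01 the latter was 1.07, and with 0.1 its interaction in PC9 went from 0.569 to 0.8. The gene was thus low, and the filter may have kept it through YAP1 KO OT. It stays in the counts above. TMPRSS4 was lower under DMSO at -0.41 (limma, adjusted p = 0.000322) and higher under OT at 0.28 (0.00306) in PC9, the only line in which it was tested. MET, the receptor of hepatocyte growth factor, was lower in HCC4006 under OT at -1.43 (adjusted p = 4.25e-09) and in PC9 at -0.14 (0.00374) under DMSO and -0.22 (0.000106) under OT.

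The list of SLITRK, SLIT, ROBO and related leucine-rich repeat membrane genes had 26 genes besides SLITRK6, of which 7 were tested in PC9 and 11 in HCC4006. In PC9 2 were higher and 0 lower under DMSO (39.9% of all genes called), and 5 higher and 1 lower under OT (53.7%). In HCC4006 2 were higher and 1 lower under DMSO (17.8%), and 4 higher and 3 lower under OT (43.6%). The median difference of the list was 0.03 under DMSO and 0.22 under OT in PC9, and 0.16 and 0.20 in HCC4006. FLRT3, a leucine-rich repeat ligand in axon guidance and adhesion, had 0.52 under DMSO and 0.87 under OT in PC9, both given with no test. Its interaction there went from 0.356 to -0.279 with a pseudocount of 0.01. The gene was thus low in PC9, and the filter may have kept it through YAP1 KO OT. It stays in the counts above. In HCC4006 FLRT3 was lower under OT at -0.38 (limma, adjusted p = 0.000879). FLRT2 was higher in HCC4006 by 0.47 (adjusted p = 0.000434) and 0.64 (1e-05). LRRTM1, a synaptic adhesion gene, was lower there at -0.62 (adjusted p = 0.000408) and -0.77 (1.85e-05).

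The microfibril and elastic fibre list had 26 genes besides MFAP2, with 17 tested in PC9 and 19 in HCC4006. In PC9 5 were higher and 4 lower under DMSO (39.9% of all genes called), and 5 higher and 7 lower under OT (53.7%). In HCC4006 4 were higher and 9 lower under DMSO (17.8%), and 3 higher and 11 lower under OT (43.6%), and the former became 3 and 4 after scaling all libraries to equal FPKM sums. The median difference of the list was 0.10 under DMSO and 0.01 under OT in PC9, and -0.09 and -0.26 in HCC4006. The closest relative of MFAP2 on the list, the microfibril protein gene MFAP5, was lower in PC9 by a log2 difference of -0.39 under DMSO (limma, adjusted p = 1.69e-05) and -1.79 under OT (1.1e-10). ADAMTSL4, a binder of fibrillin, was lower in PC9 at -1.09 (adjusted p = 1.1e-06) and -1.84 (9.72e-09). LOX, the crosslinking enzyme of elastin and collagen, was lower in HCC4006 at -0.75 (adjusted p = 1.74e-05) and -1.84 (2.03e-09), and in PC9 it had -0.15 (0.134) and -0.14 (0.137). The summed fibroblast markers were also lower in YAP1 KO than in CTRL cells of HCC4006, as given above, and their part in these counts was not tested.

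The WNT and beta-catenin list had 24 genes, with 16 tested in PC9 and 18 in HCC4006. In PC9 6 were higher and 1 lower under DMSO (39.9% of all genes called), and 6 higher and 6 lower under OT (53.7%). In HCC4006 5 were higher and 5 lower under DMSO (17.8%), and 4 higher and 7 lower under OT (43.6%), and the 4 became 2 when libraries were rescaled by the median of ratios or to the same sum. The median difference of the list was 0.09 under DMSO and 0.07 under OT in PC9, and -0.02 and 0.04 in HCC4006. BAMBI, a pseudoreceptor of the TGF-beta family and a target of beta-catenin, was higher in YAP1 KO cells in all 4 contrasts. The log2 differences were 0.81 under DMSO (limma, adjusted p = 9.81e-06) and 1.71 under OT (1.37e-08) in PC9, and 0.64 (2.12e-05) and 1.02 (9.23e-08) in HCC4006. DKK1, a secreted WNT inhibitor, was higher under DMSO by 0.45 in PC9 (adjusted p = 3.02e-06) and 0.66 in HCC4006 (8.82e-06), and lower under OT at -0.74 (2.67e-08) and -0.999 (4.59e-08). LGR5, a WNT-dependent receptor of stem cells, was tested in HCC4006 only and was lower under OT at -1.54 (adjusted p = 3.16e-09).

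**Figure D5:**
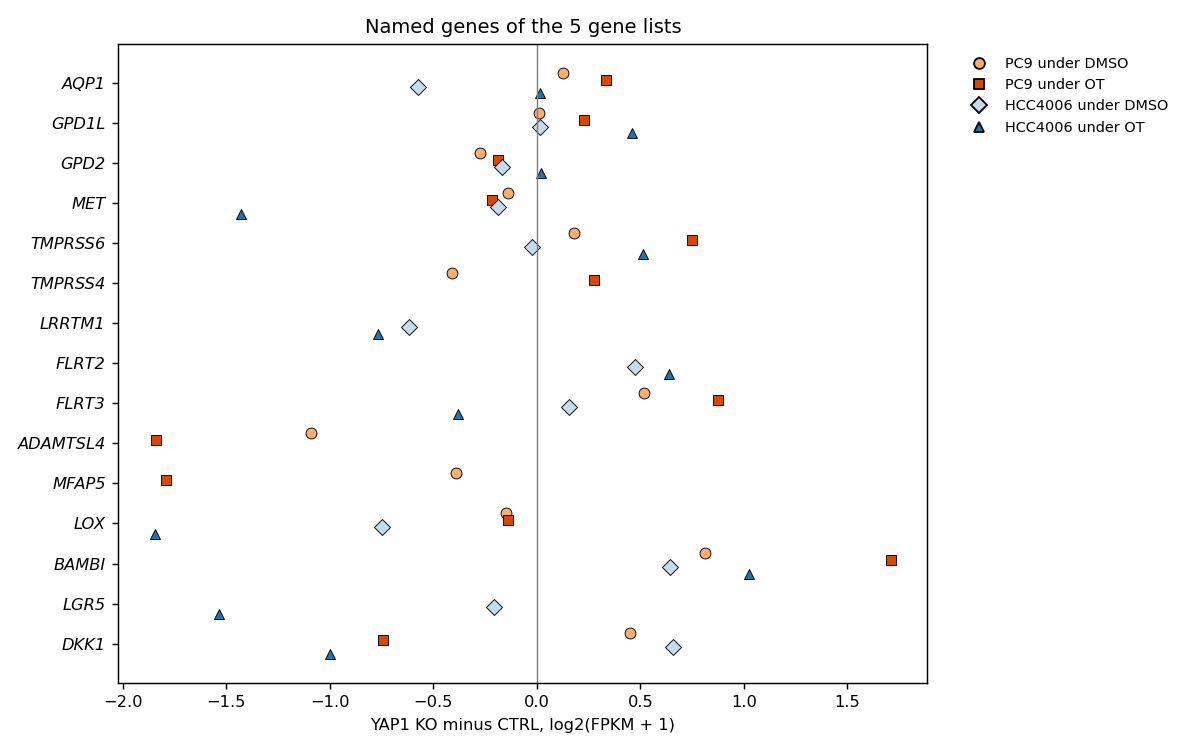
Log2 difference of YAP1 KO from CTRL (x axis, log2(FPKM + 1)) for the named genes of the 5 lists in each line and treatment (no point where the filter did not keep a gene). BAMBI is to the right of 0 in all 4 contrasts, at 0.64 to 1.71, while ADAMTSL4, MFAP5 and LOX are to the left in each contrast in which they were tested.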

How the data were processed

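Per the labels' protocols, cells in 10 cm dishes were lysed in TRIzol for RNA and sequenced from stranded mRNA libraries. The deposited values are the authors' FPKM, in 1 table with a column for each library. Tools named in the submitters' processing notes are STAR 2.5.1b, Cufflinks 2.2.1 and DESeq2 1.10.1, with hg19 or GRCh37 as build. Which gene annotation was used is not given in the sources here. All per-sample columns were matched to a library by line, genotype, treatment and replicate number in their names. The column names read NOTX where the labels read DMSO, and those of the YAP1 KO libraries carry YAP14 or YAP30, whose meaning is not given in the sources here.

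FPKM are not counts, so limma 3.58.1 (R 4.3.3) was used on log2(FPKM + 1), with moderated variances that depend on the mean level (limma's trend). A gene entered the fit of a line when 3 or more of its 12 libraries had an FPKM of 1 or more, and all 5 members passed in both lines. The 4 groups of a line were fitted together, with 8 residual degrees of freedom, and the 8 groups of both lines in 1 further fit for differences between lines. Libraries of a group had a median residual SD of 0.0696 (PC9) and 0.0896 (HCC4006). Calls were made at an adjusted p under 0.05 (Benjamini-Hochberg, over all genes kept). No pair of libraries held identical values.

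The members, the gene lists and the tests were chosen with earlier results of these data known. Besides the members and YAP1, the text names by rule the 3 genes most like each member and, from each list, up to 3 genes with the largest mean size of the YAP1 KO differences among those called at least once. Alternatives were other pseudocounts, filters and scalings, no trend, a replicate block and leaving out each library.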

Additional observations from a re-analysis of the deposited data

Results flagged for a closer look

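AQP3, C8orf4 and MFAP2 had OT responses, averaged over genotypes, that differed between the lines by the limma test of the difference itself. The log2 difference of HCC4006 from PC9 was -2.48 for AQP3, -1.48 for C8orf4 and 0.969 for MFAP2, with the adjusted p-values given above. SLITRK6 had -1.06, which is a description only, since in PC9 4 of 12 libraries reached 1 FPKM and the gene was kept through its high YAP1 KO DMSO group.

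AQP3 also changed sign between groups in every library, and these differences were not tested because the choice of the gene used them. The YAP1 KO difference from CTRL was 0.834 under OT in PC9 and 1.33 under OT in HCC4006, against -0.56 and -0.59 under DMSO. The OT difference in HCC4006 CTRL cells was -0.813, against 1.1 in HCC4006 YAP1 KO cells and 1.93 in PC9 CTRL cells.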

How the results depend on the processing

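Of the fitted results on members, those given with no test for the filter included, 513 values under alternatives kept their direction and side of the threshold. The exceptions were AQP3 and HPN. The averaged OT response of AQP3 in HCC4006 was 0.0757 (limma, adjusted p = 0.141) under median-of-ratios scaling. The difference of the lines in the HPN response, given with no test for the filter, changed its sign under median-of-ratios scaling, to -0.0751. It was 0.477 and 0.569 with pseudocounts of 0.1 and 0.01, on the other side of the threshold. The cause was not tested. Described values stayed within 1 SD in 904 cases and moved in 91, of which 70 were changes of pseudocount. Counts of genes called stayed within 1.5 times of the main count in 302 cases. The exception was YAP1 KO against CTRL under DMSO in HCC4006, with 2340 genes called and 1443 to 3330 when 1 library was left out, the count being 1443 without YAP1 KO DMSO replicate 1 and 1486 without YAP1 KO DMSO replicate 2.

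Scaling moved the share of higher among called genes by over 10 percentage points in 7 contrasts. Rescaling to the same sum moved it from 48.9% to 60.7% for the interaction in PC9, from 55.1% to 66.6% for OT in CTRL cells of HCC4006, from 55.5% to 65.7% for the averaged OT response of HCC4006, from 51.5% to 61.7% for YAP1 KO under DMSO in HCC4006, and from 59.3% to 70.1% for the difference between lines in the OT response. Median-of-ratios scaling moved the last to 44.2%, the interaction in HCC4006 from 56.1% to 44.4% and YAP1 KO under OT in HCC4006 from 62.3% to 48.6%.

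Whether replicate numbers pair the libraries cannot be told from the correlations of their deviations, whose ranges overlap. Libraries with the same number had -0.264 to 0.161 (median 0.00305) in PC9 and -0.15 to 0.236 (median 0.0485) in HCC4006. Those with other numbers had -0.241 to 0.25 (median -0.00248) and -0.221 to 0.219 (median -0.0287). In PC9 3 of 12 and in HCC4006 5 of 12 libraries correlated best with their own number. With the replicate number as a block, 2274 genes were called for YAP1 KO under DMSO in HCC4006 and 2348 for the interaction there, against 2340 and 2444 without it, and no call on a member changed.

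Depth is unknown, so the lowest values, such as SLITRK6 in PC9 and HPN in HCC4006 under DMSO, carry no counting interval. With a filter at FPKM of 5 SLITRK6 was not tested in PC9.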
